A study of Mus musculus with 12 samples.

Results

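The BCL2 family and the initiator caspases decide whether a damaged cell dies by apoptosis, and 9 of these genes that are not among the usual p53 targets were followed here: Mcl1, Bcl2l1, Bcl2, Bak1, Bok, Bid, Bcl2l11, Casp9 and Casp8. They were chosen by gene symbol, and all 9 were found among the 41079 gene IDs of the deposited tables. The data are RNA-seq of mouse embryonic stem cells (cultured pluripotent cells of early embryo origin) in 12 libraries of 4 groups with 3 labelled biological replicates each. The groups were the Bod1l knockout with etoposide, the Bod1l knockout without it, wild type with etoposide and untreated wild type. The labels name tamoxifen in both knockout groups and in neither wild-type group, so knockout and tamoxifen cannot be told apart. The Bod1l protein belongs to the complex around SETD1A, a histone H3 methyltransferase, and etoposide is a topoisomerase II poison that causes DNA double-strand breaks. The dose, the time of exposure, the number of clones and the age or passage of the cells are not given in the sources used here.

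In the mitochondrial route to apoptosis, guard proteins such as MCL-1, BCL-XL and BCL-2 hold the pore-forming proteins BAX and BAK in check. BH3-only proteins such as BIM and BID bind the guards or the pore formers and tip the balance towards a pore in the outer mitochondrial membrane, after which cytochrome c and APAF1 activate caspase-9. Caspase-8 starts the route from death receptors and joins the mitochondrial one by cutting BID. Mouse embryonic stem cells are known to die readily after DNA damage.

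Bod1l stood at 12.95, 12.4 and 11.7 TPM in the treated knockout and at 12.0, 11.2 and 11.5 TPM in the untreated knockout, against 46.5, 51.1 and 48.6 TPM in treated and 48.5, 48.8 and 50.6 TPM in untreated wild type. The knockout kept 25.3% of the wild-type mean with etoposide and 23.5% without it, and how much of Bod1l was deleted is not given in the sources used here. The libraries held 5.23 to 7.76 gigabases of aligned sequence. All 7 pluripotency markers found were at 152 TPM or more in every library, and their sum was 6809 to 7127 TPM in the treated knockout, 7135 to 7252 in the untreated knockout, 7357 to 7693 in treated and 7805 to 7816 in untreated wild type. Dppa5a alone had group means of 3258.6 to 3932.5 TPM. In the untreated knockout 2 of the 7 were called lower and none higher, where 49.6% of all genes were called. With etoposide 4 were higher in the knockout, among them Klf4, Zfp42 and Nanog, and 2 lower, where 44.1% were called. Feeder fibroblast markers summed to at most 7.50 TPM in any library. Of the 5 extraembryonic endoderm markers Dab2 and Gata4 were tested, the rest being below the minimum level, and both were higher in the untreated knockout than in untreated wild type (0.76 ± 0.12 and 0.46 ± 0.12 on the log2 scale, limma adjusted p = 0.00029 and 0.00824), with Dab2 also higher under etoposide (0.41 ± 0.12, limma adjusted p = 0.0171). Untreated wild type alone, at a mean of 0.870 TPM, would not have met the minimum level for Gata4. Of 4 trophectoderm markers 3 were tested, and only Cdx2 was called between genotypes. Cdx2 was higher in the knockout with etoposide (0.45 ± 0.13, limma adjusted p = 0.0141) and without it (0.44 ± 0.13, limma adjusted p = 0.0127). Krt8 and Krt18 were not called between genotypes in either setting. Over all genes tested, the share called higher in the knockout was 22.5% with etoposide and 28.1% without it. With etoposide 2 of 3 tested trophectoderm markers, Krt8 and Cdx2, and 2 of 3 tested neural markers, Tubb3 and Nes, were lower in each genotype. Of all genes tested, 10.5% were lower with etoposide in the knockout and 13.5% in wild type. Markers of the 2-cell-like state, a rare state of these cultures, summed to 32.1 to 39.9 TPM in the treated and 31.6 to 37.9 TPM in the untreated knockout, against 3.06 to 4.40 TPM in treated and 3.31 to 3.92 TPM in untreated wild type. All 6 of these markers found in the tables were higher in the knockout in both comparisons of genotype, but most had wild-type means under 1 TPM and met the minimum level for the test only through the knockout groups, so their calls are no support. Of the listed markers, 7 of 8 for pluripotency and 6 of 7 for the 2-cell-like state were found. No marker that was found was at 0 in all libraries, and the part of any of these markers in the results that follow was not tested. In bulk RNA, fewer cells of a type and less RNA per cell cannot be told apart.

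TPM, a length-corrected share of all transcripts, is scaled by gene length, so levels of different genes can be set side by side. Over the 12 libraries Mcl1 was the most abundant of the 9 at a mean of 263 TPM. Bid followed at 108 TPM, Bak1 at 83.6, Bcl2l1 at 56.7, Casp9 at 14.7, Bok at 12.2, Bcl2l11 at 6.73, Casp8 at 0.793 and Bcl2 at 0.184 TPM. Each gene lay above the next in this order in 12 of 12 libraries, although the ranges of Casp9 and Bok across libraries overlapped, with 11.3 TPM the lowest for Casp9 and 16.1 TPM the highest for Bok.

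The rank of Bcl2l1 depended on which deposited column was read. Coverage, the mean read depth over a gene, divided by FPKM gave 1 shared value in 28.4 to 29.7% of the genes above 1 FPKM. The ratio of Bok and of Casp9 was 100.0% of that shared value (median over libraries), and that of Bak1 was 99.0%. It was 80.3% for Bid, 40.0% for Mcl1, 36.4% for Bcl2l11, 14.7% for Casp8 and 4.88% for Bcl2l1. Put on the TPM scale, the coverage of Bcl2l1 averaged 2.79, which placed it 6th of the 9 in place of 4th, below Casp9 and Bok. The transcript lengths behind the values are not in the tables, so the level of Bcl2l1 relative to other genes is uncertain by that much. Mcl1 averaged 105 on that scale, against 87.2 for Bid and 82.8 for Bak1, so its lead is uncertain too, though it stayed highest. Bcl2l11 averaged 2.43 and Casp8 0.115. The ratio moved between 4.81% and 5.21% for Bcl2l1 and between 40.0% and 40.1% for Mcl1 across libraries.

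**Figure D1:**
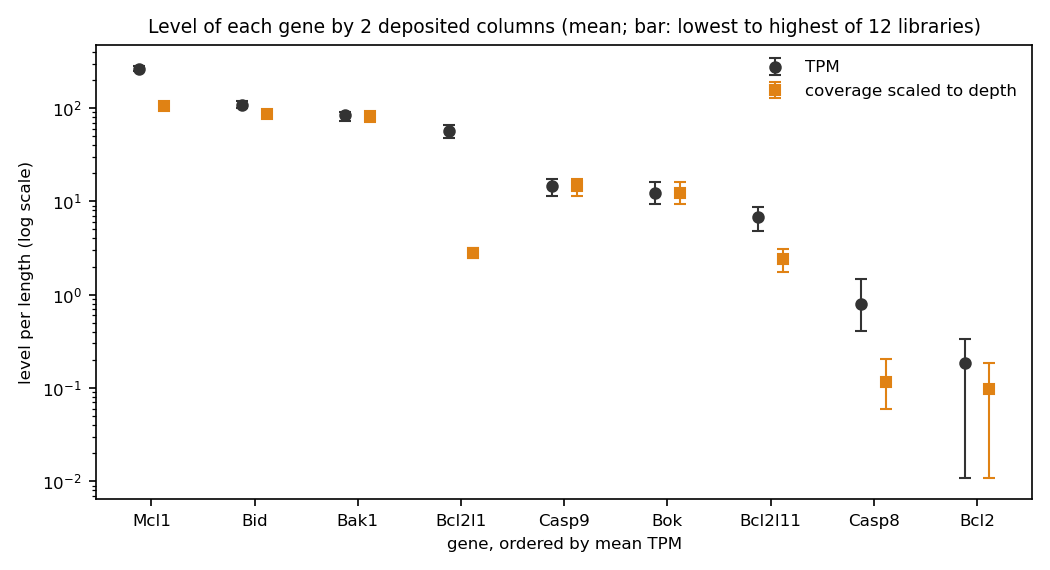
Level per length of the 9 genes (log axis) by TPM (circles) and by coverage scaled to library depth (squares); symbols are means over 12 libraries and bars run from the lowest to the highest library. Bcl2l1 averaged 56.7 TPM but 2.79 by coverage, while Casp9 and Bok were alike by both columns.

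All but Casp8 and Bcl2, that is 7 genes, reached the minimum mean of 1 TPM and entered the test, limma on log2(TPM + 1) over all 14107 genes that did, with Benjamini-Hochberg adjustment. Each change is a difference on that log2 scale with its SE, which understates how far a low gene moved, and a gene was called changed at an adjusted p under 0.05. Between untreated knockout and untreated wild type 4 of the 7 changed, Bid and Bcl2l11 higher and Bok and Casp9 lower. Of all genes tested 49.6% changed, 28.1% higher and 21.5% lower. Of those calls 56.6% were higher, a share that was 48.7% with median-of-ratios scaling. With etoposide, 4 of the 7 differed between knockout and wild type, Mcl1 and Bcl2l1 higher and Bok and Casp9 lower, where 44.1% of all genes did, 22.5% higher and 21.7% lower. Without replicate 1 or replicate 3 of treated wild type that count was 2, with 1 higher and 1 lower.

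Etoposide changed 3 of the 7 in the knockout, Mcl1 and Bcl2l11 higher and Bid lower, against 25.0% of all genes, 14.5% higher and 10.5% lower. In wild type it changed 3 of the 7, Mcl1 and Bcl2l11 higher and Bak1 lower, against 34.3% of all genes, 20.8% higher and 13.5% lower. Of the calls over all genes 57.9% were higher in the knockout, against 50.3% with median-of-ratios scaling and 49.2% with quantile normalization. In wild type 60.7% were higher, against 45.5% and 43.9% with those scalings. The etoposide change did not differ between genotypes for any of the 7 by limma (0 at an adjusted p under 0.05, 1 at an unadjusted p under 0.05, and 0 to 3 at an unadjusted p under 0.05 over the alternatives). Of all genes 1.23% differed, 0.0709% with a positive and 1.16% with a negative difference, taken as the change in the knockout minus that in wild type. A negative difference can be a smaller rise or a larger fall in the knockout. The share of 1.23% stands for 174 genes, a count that was 104 with no minimum level, 102 with quantile normalization and 93 to 131 when 1 library was left out, lowest without replicate 3 of treated wild type. In each of these comparisons the number of members called was small, and the shares of all genes called are the measure beside which it stands.

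**Figure D2:**
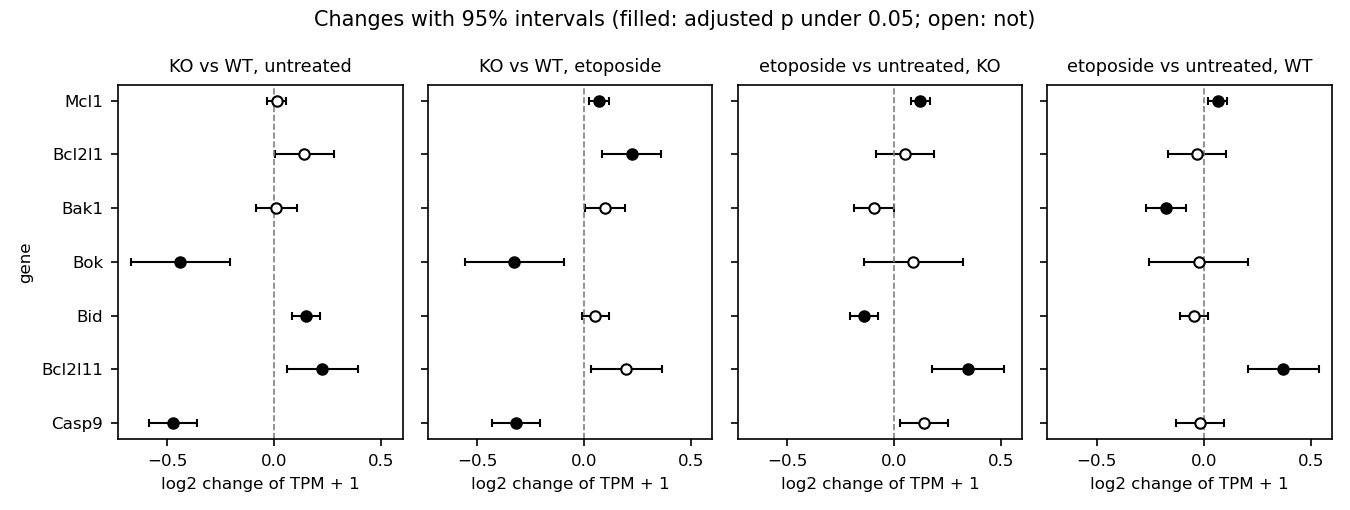
Change of the 7 tested genes in 4 comparisons as differences of log2(TPM + 1), with points for estimates, bars for 95% intervals, filled points for adjusted p under 0.05 and open points for the rest. Casp9 and Bok lie left of 0 in both comparisons of knockout with wild type, and Bcl2l11 lies right of 0 in both comparisons of etoposide with no treatment.

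Among the guards, Mcl1 (chromosome 3, 95564017 to 95583553, GRCm39) stood at 274, 278 and 282 TPM in the treated knockout and at 258, 254 and 253 TPM in the untreated knockout. Wild type had 261, 266 and 267 TPM with etoposide and 251, 251 and 257 TPM without it. Every treated library thus lay above every untreated one of its genotype. MCL-1 is a short-lived guard that early embryos cannot do without. Its transcript was higher with etoposide by 0.12 ± 0.02 in the knockout (limma adjusted p = 0.00091), which is 8.97% on the mean TPM, and by 0.06 ± 0.02 in wild type (limma adjusted p = 0.0296), which is 4.61%. The rise in wild type was 0.017 with median-of-ratios scaling (adjusted p = 0.560), and it also lost its call with FPKM (0.0722), with the compared groups alone (0.0577), and without replicate 1 or 2 of untreated wild type (0.0867 and 0.0926) or replicate 2 or 3 of treated wild type (0.0789 and 0.0957). Over all alternatives its limma adjusted p ran from 0.00167 to 0.560. In the knockout the adjusted p stayed between 9.36e-05 and 0.0091.

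Treated knockout exceeded treated wild type in Mcl1 by 0.07 ± 0.02 (limma adjusted p = 0.0176), or 4.93%. Without replicate 1 of treated wild type or replicate 3 of the treated knockout the adjusted p was 0.065 and 0.0624, in a range of 0.00384 to 0.065 over all alternatives. In untreated cells the groups overlapped, at a difference of 0.011 with a 95% interval of -0.035 to 0.056 (limma adjusted p = 0.697), and the sign turned with FPKM and with median-of-ratios scaling.

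Bcl2l1 (chromosome 2, 152600652 to 152673632) encodes the guard BCL-XL. It had 66.0, 57.3 and 61.0 TPM in the treated knockout against 56.3, 53.95 and 47.5 TPM in treated wild type, and 59.9, 60.5 and 57.3 TPM in the untreated knockout against 51.8, 55.0 and 54.1 TPM in untreated wild type. Knockout libraries were above wild-type libraries in both settings, without overlap. The difference with etoposide was 0.22 ± 0.06, or 16.8% of the mean TPM (limma adjusted p = 0.0129). It was 0.15 without replicate 3 of treated wild type (adjusted p = 0.0517), 0.17 without replicate 1 of the treated knockout (0.0581) and 0.14 with coverage in place of TPM (0.0705), in a range of 0.00702 to 0.0705. The untreated difference of 0.14 ± 0.06 did not pass (limma adjusted p = 0.0805, 95% interval 0.0041 to 0.28), though it did with the compared groups alone (0.02) and without replicate 3 of treated wild type (0.0356), in a range of 0.02 to 0.208. With etoposide against no treatment the groups overlapped in the knockout (0.05 ± 0.06, limma adjusted p = 0.614) and in wild type (-0.031 ± 0.06, limma adjusted p = 0.745).

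Bcl2 (chromosome 1, 106465906 to 106642020), the founding guard of the family, was nearly undetected. It had 0.239, 0.154 and 0.114 TPM in the treated knockout, 0.170, 0.284 and 0.258 in the untreated knockout, 0.336, 0.126 and 0.220 in treated wild type and 0.101, 0.0109 and 0.194 in untreated wild type. All 4 groups overlapped. In the fit without a minimum level its limma adjusted p was 0.154 or more in every comparison. The 3 guards summed to 339 ± 3.56 TPM in the treated knockout, 314 ± 4.17 in the untreated knockout, 318 ± 2.75 in treated wild type and 307 ± 3.89 in untreated wild type (SD, n = 3 libraries). Mcl1 made up 80.5 to 84.8% of that sum in TPM and 97.0 to 97.6% by scaled coverage, and Bcl2 at most 0.106% in TPM.

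**Figure D3:**
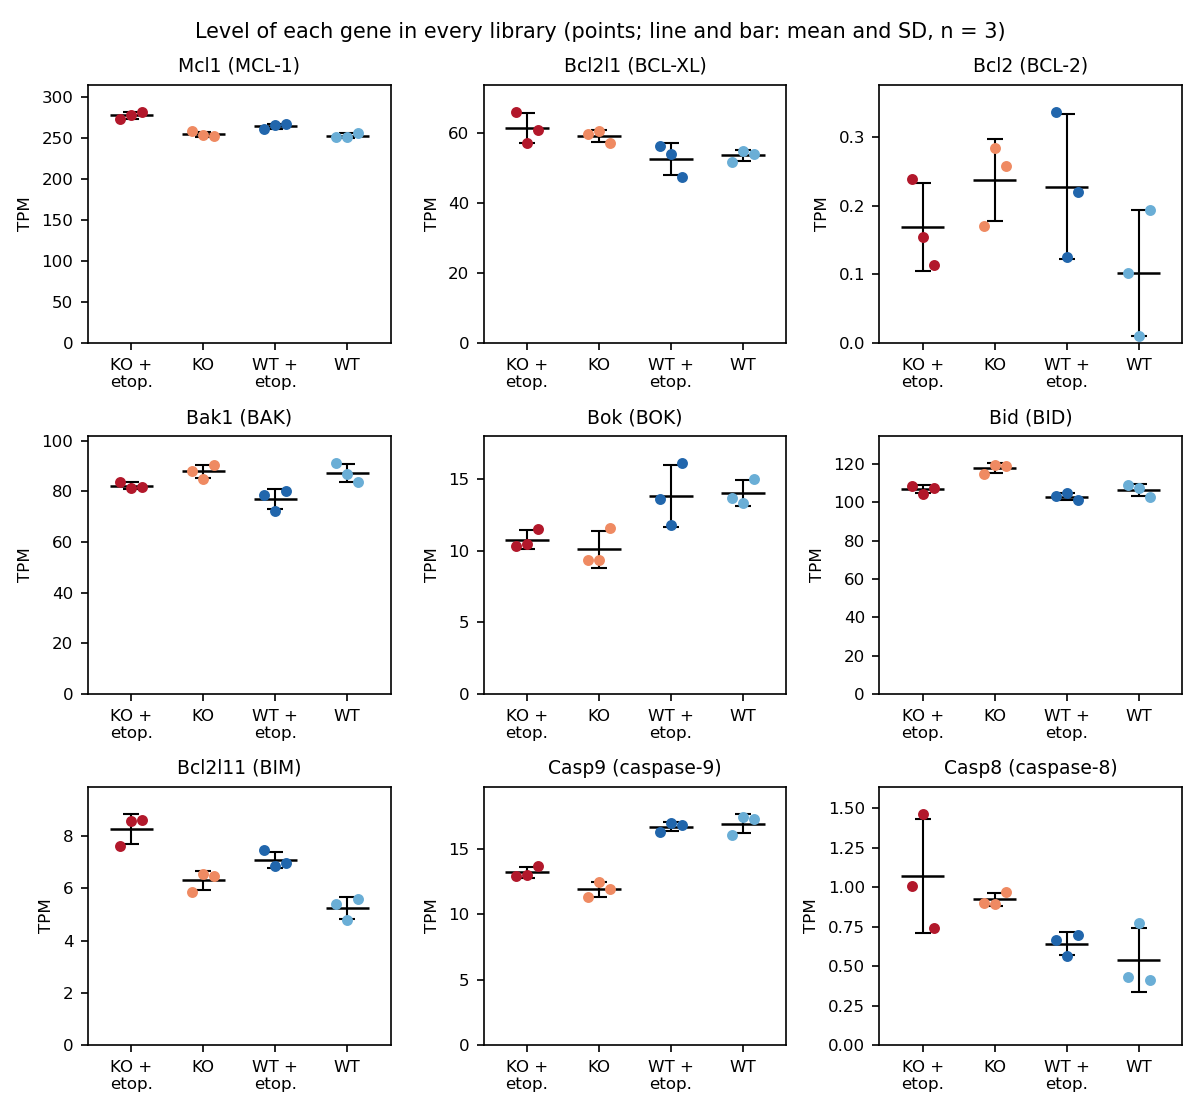
TPM of the 9 genes in every library (points), with the mean (line) and SD (bar) of 3 libraries, for the Bod1l knockout (KO) and wild type (WT) with and without etoposide (etop.). Casp9 and Bok are lower in both knockout groups, and Bcl2l11 is higher in both treated groups.

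Of the pore formers, Bak1 (chromosome 17, 27238786 to 27247601) encodes BAK, which sits in the mitochondrial membrane at rest. Its levels were 83.9, 81.3 and 81.7 TPM in the treated knockout and 88.0, 85.1 and 90.5 TPM in the untreated knockout. In wild type they were 78.6, 72.3 and 80.2 TPM with etoposide and 91.1, 87.0 and 83.7 TPM without it. Treated libraries were below untreated ones in both genotypes without overlap. The fall in wild type was 0.18 ± 0.04 on the log2 scale, or 11.8% of the mean TPM (limma adjusted p = 0.0064), and it passed under every alternative (adjusted p 0.0021 to 0.0306). In the knockout the change was -0.093 ± 0.04 (limma adjusted p = 0.139, 95% interval -0.187 to 0.00058), which did not pass. The difference of those changes was 0.086 ± 0.06 (limma adjusted p = 0.661). Between genotypes Bak1 differed by 0.096 ± 0.04 with etoposide (limma adjusted p = 0.0909) and by 0.01 ± 0.04 without it (limma adjusted p = 0.864, 95% interval -0.084 to 0.104), neither of which passed. The sign of the untreated difference turned with FPKM and with median-of-ratios scaling.

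Bok (chromosome 1, 93613297 to 93623492) encodes a relative of BAK and BAX that the usual guards hold poorly. Its levels without etoposide were 9.37, 9.38 and 11.6 TPM in the knockout against 13.7, 13.4 and 15.1 TPM in untreated wild type, and with etoposide they were 10.35, 10.5 and 11.6 TPM in the knockout against 13.7, 11.8 and 16.1 TPM in treated wild type. Knockout libraries were below wild-type ones in both settings, by a narrow gap with etoposide. Untreated, Bok fell by 0.44 on the log2 scale (SE 0.11, limma adjusted p = 0.00445), or 27.9% of the mean TPM, and passed under every alternative (adjusted p 0.00039 to 0.0205). With etoposide the difference was -0.33 ± 0.11 (limma adjusted p = 0.0257), or 22.2%. That call ended without replicate 3 of treated wild type, its highest library (adjusted p = 0.110), or its replicate 1 (0.056). Dropping the treated knockout's replicate 1 or 2 also ended it (0.076 and 0.0719). It also ended with quantile normalization (0.0727) and with no minimum level (0.0618), in a range of 0.00288 to 0.110. Etoposide left Bok within the spread of the libraries in the knockout (0.089 ± 0.11, limma adjusted p = 0.591) and in wild type (-0.024 ± 0.11, limma adjusted p = 0.889).

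The BH3-only genes were Bcl2l11 and Bid. Bcl2l11 (chromosome 2, 127967958 to 128004467) encodes BIM, which can bind every guard. It had 7.63, 8.58 and 8.64 TPM in the treated knockout against 5.87, 6.56 and 6.49 TPM in the untreated knockout, and 7.46, 6.85 and 6.97 TPM in treated wild type against 5.41, 4.78 and 5.59 TPM in untreated wild type. All treated libraries were above all untreated ones of the same genotype. Etoposide raised it by 0.34 ± 0.08 in the knockout (limma adjusted p = 0.0057), or 31.3% of the mean TPM, and by 0.37 ± 0.08 in wild type (limma adjusted p = 0.00246), or 34.8%. The rise in the knockout passed under every alternative (adjusted p 0.00206 to 0.026). In wild type it was 0.20 with quantile normalization (adjusted p = 0.071), in a range of 0.00112 to 0.071, and passed under the others. The rises differed between genotypes by -0.027 ± 0.11 (limma adjusted p = 0.960, 95% interval -0.263 to 0.209).

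Knockout libraries also lay above wild type in Bcl2l11, by 0.22 ± 0.08 without etoposide (limma adjusted p = 0.0286), or 19.9%, and by 0.20 ± 0.08 with it, or 16.8%, which did not pass (limma adjusted p = 0.0542). The groups did not overlap in either setting. The untreated call ended without replicate 2 of untreated wild type (adjusted p = 0.116) and without replicate 2 or 3 of the untreated knockout (0.0861 and 0.0792). It ended too with no minimum level (0.0529), median-of-ratios scaling (0.0546), quantile normalization (0.0824), the compared groups alone (0.0643) and coverage in place of TPM (0.0515), in a range of 0.0231 to 0.116. The treated difference passed with quantile normalization (0.0185), without replicate 2 of untreated wild type (0.0467) and without replicate 1 of the treated knockout (0.0346), in a range of 0.0185 to 0.151.

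Because Bcl2l11 was the member most raised by etoposide, its promoter window, 250 bases before to 50 after the start, is shown from RefSeq on GRCm38.p6, a different build from that of the expression files. RefSeq lists 2 starts for the gene, and the window below is that of the upstream start on the plus strand, chr2:128125788-128126087.
Bcl2l11: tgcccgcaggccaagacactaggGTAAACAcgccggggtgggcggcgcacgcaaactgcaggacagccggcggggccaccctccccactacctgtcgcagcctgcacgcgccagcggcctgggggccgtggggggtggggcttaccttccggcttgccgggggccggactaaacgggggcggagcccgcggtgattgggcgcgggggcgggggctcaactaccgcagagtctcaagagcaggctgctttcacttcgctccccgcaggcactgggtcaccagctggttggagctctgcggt
The capitals mark GTAAACA, the letters of the forkhead (FOXO) motif searched on both strands, which begin 227 bases before the start. The window of the other start, chr2:128127325-128127624, does not hold them. They were found in 1 of the 12 windows of the 9 genes, and in 3.65% of all 32851 promoter windows of that length. FOXO3 is known as an activator of Bim. Foxo3 averaged 51.0 ± 0.934 TPM in the treated and 37.5 ± 1.78 TPM in the untreated knockout, and 50.05 ± 0.888 TPM in treated and 34.0 ± 0.356 TPM in untreated wild type (SD, n = 3 libraries). It was higher with etoposide by 0.43 ± 0.04 in the knockout (limma adjusted p = 4.58e-06) and by 0.54 ± 0.04 in wild type (limma adjusted p = 2.91e-07). The match is a description of the letters, and binding was not measured. Of all genes tested, 25.0% changed with etoposide in the knockout and 34.3% in wild type. A link between Foxo3 and the rise of Bcl2l11 was not tested.

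Bid (chromosome 6, 120870080 to 120894074) encodes the BH3-only protein that caspase-8 cuts into its active form. It had 108, 104 and 108 TPM in the treated knockout against 103, 105 and 101 TPM in treated wild type, and 115, 119.5 and 119 TPM in the untreated knockout against 109, 107 and 103 TPM in untreated wild type. The untreated knockout stood apart from the other 3 groups, with no library as low as their highest. Against untreated wild type the difference was 0.15 ± 0.03 (limma adjusted p = 0.00144), or 10.8%, and it passed under every alternative (adjusted p 0.00051 to 0.0125). Treated against untreated knockout, a comparison that shares the untreated knockout libraries, Bid fell by 0.14 on the log2 scale (SE 0.03, limma adjusted p = 0.00432), or 9.32%, again under every alternative (0.00159 to 0.0217). In wild type the etoposide change was -0.045 ± 0.03 (limma adjusted p = 0.273), which passed only with median-of-ratios scaling (-0.093, adjusted p = 0.0358, in a range of 0.0358 to 0.564). Between treated groups the difference was 0.053 ± 0.03 (limma adjusted p = 0.172). The etoposide changes of the genotypes differed by -0.095 ± 0.04, which was the 1 member at an unadjusted p under 0.05 and did not pass adjustment (limma adjusted p = 0.419).

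Of the initiator caspases, Casp9 (chromosome 4, 141520923 to 141543289) encodes the enzyme that APAF1 activates once cytochrome c has left the mitochondria. It stood at 13.0, 13.0 and 13.7 TPM in the treated knockout against 16.35, 17.0 and 16.9 TPM in treated wild type, and at 11.3, 12.5 and 12.0 TPM in the untreated knockout against 16.1, 17.5 and 17.3 TPM in untreated wild type. Every knockout library was below every wild-type library, with or without etoposide. Casp9 fell by 0.47 on the log2 scale without etoposide (SE 0.05, limma adjusted p = 1.35e-05), or 29.7% of the mean TPM. With etoposide the fall was 0.32 on that scale (SE 0.05, limma adjusted p = 0.00039), or 21.0%. Both calls held under every alternative, with adjusted p of at most 0.00063 untreated and 0.00228 treated. In the knockout Casp9 was 0.14 ± 0.05 higher with etoposide, which did not pass (limma adjusted p = 0.0707) except with coverage in place of TPM (0.0345, in a range of 0.0345 to 0.276). In wild type the etoposide change was -0.017 ± 0.05 (limma adjusted p = 0.834), and the difference of the changes was 0.16 ± 0.07 (limma adjusted p = 0.451, 95% interval -0.0037 to 0.316).

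Casp9 and Bok were the members lower in the knockout in both settings, and their promoter windows are shown for their CpG content. A partner protein in SETD1 complexes binds unmethylated CpG, and whether this bears on these genes was not tested. Capitals mark each CpG (GRCm38.p6, RefSeq, both genes on the plus strand, Casp9 at chr4:141793362-141793661 and Bok at chr1:93685325-93685624).
Casp9: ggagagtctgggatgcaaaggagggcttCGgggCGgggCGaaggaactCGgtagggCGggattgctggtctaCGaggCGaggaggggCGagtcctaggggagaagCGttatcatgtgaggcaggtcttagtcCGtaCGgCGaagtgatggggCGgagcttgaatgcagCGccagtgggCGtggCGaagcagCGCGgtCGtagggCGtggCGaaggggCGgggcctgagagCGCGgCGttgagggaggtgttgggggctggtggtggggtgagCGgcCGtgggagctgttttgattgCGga
Bok: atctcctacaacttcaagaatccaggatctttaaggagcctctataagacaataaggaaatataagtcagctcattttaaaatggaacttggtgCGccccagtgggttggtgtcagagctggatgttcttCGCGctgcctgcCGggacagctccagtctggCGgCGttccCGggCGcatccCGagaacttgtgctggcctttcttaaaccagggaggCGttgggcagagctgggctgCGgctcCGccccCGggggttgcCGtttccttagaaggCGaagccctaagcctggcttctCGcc
The Casp9 window holds 28 CpG, more than 85.8% of all promoter windows, and the Bok window 16, more than 67.0%. The median window holds 7. RefSeq gave 12 windows for the 9 genes, and 8 of the 9 genes had at least 1 window above that median, the exception being Casp8 with 5. The Mcl1 window holds 33 CpG, that of Bcl2 44, that of Bid 22 and that of Bak1 11. The windows of Bcl2l11 hold 27 and 38, and those of Bcl2l1 hold 1, 14 and 22. None of these other genes was called lower in the knockout in either setting, but Bcl2 and Casp8 lay below the minimum level and did not enter that test. The GC box GGGCGG lay in 7 of the 12 windows, which belong to 6 genes, against 35.7% of all windows, and the CCAAT box CCAAT in 3 of the 12, which belong to 2 genes, against 37.4%. Neither TATAAA nor the AP-1 letters TGANTCA lay in any of them, against 13.6% and 7.81% of all windows (each searched on both strands). A window without these letters says nothing of sites elsewhere.

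Casp8 (chromosome 1, 58834553 to 58886663), the initiator of the death receptor route, was close to the lower limit of the data. It had 1.01, 1.46 and 0.745 TPM in the treated knockout against 0.665, 0.561 and 0.699 TPM in treated wild type. Untreated, it had 0.903, 0.895 and 0.973 TPM in the knockout against 0.428, 0.770 and 0.411 TPM in wild type. Knockout libraries were above wild-type libraries in both settings without overlap. In the fit without a minimum level the differences did not pass, at 0.32 ± 0.13 with etoposide (limma adjusted p = 0.101) and 0.33 ± 0.13 without it (limma adjusted p = 0.0852).

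The groups of the 7 tested members did not overlap for 6 in treated knockout against treated wild type, where 54.3% of all genes tested did not overlap either, and for 5 in untreated knockout against untreated wild type, where 57.4% did not. For etoposide against no treatment the counts were 5 in the knockout, against 39.5% of all genes, and 3 in wild type, against 46.6%.

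Other genes of the pathway were followed in 6 lists, of which that of p53 targets shares Bax, Bbc3, Pmaip1, Casp1, Casp6, Apaf1, Fas and Tnfrsf10b with the others. Of the other BCL2 family genes, 12 of 18 were tested. In the untreated knockout 5 were higher and 4 lower (median 0.03, against 0.04 and 49.6% called over all genes tested). In the treated knockout against treated wild type 3 were higher and 4 lower (median -0.066, against 0.017 and 44.1% called). Bnip3, a mitophagy receptor induced by hypoxia, averaged 5.06 ± 0.509 TPM in the untreated knockout and 19.4 ± 1.96 TPM in untreated wild type (-1.75 ± 0.23, limma adjusted p = 6.79e-05). Bmf, a BH3-only gene, averaged 4.27 ± 0.290 TPM in the untreated knockout and 7.05 ± 0.461 TPM in untreated wild type (-0.61 ± 0.08, limma adjusted p = 6.48e-05). Etoposide raised 3 of the 12 and lowered 1 in the knockout (median 0.074, against 0.0018 and 25.0% called). It raised 3 and lowered none in wild type (median 0.069, against 0.023 and 34.3% called). The same 3 genes were raised in both genotypes, and all 3 are also in the list of p53 targets. The 3 raised in wild type included Bbc3, which encodes the BH3-only protein PUMA, at 57.7 ± 0.766 TPM with etoposide and 23.3 ± 0.681 TPM without (1.27 ± 0.06, limma adjusted p = 7.43e-09), and Pmaip1, which encodes NOXA, the BH3-only partner of MCL-1 (1.40 ± 0.09, limma adjusted p = 1.73e-07). The rise of Bcl2l11 in wild type, given above, was smaller than either on this scale, and that difference was not tested. In the knockout Bbc3 averaged 57.3 ± 1.08 TPM with etoposide and 30.9 ± 3.04 TPM without (0.88 ± 0.06, limma adjusted p = 5.07e-07). Its etoposide changes differed between genotypes (-0.39 ± 0.08, limma adjusted p = 0.0387). Bbc3 was the 1 of the 12 with such a call, which was negative for 1.16% of all genes.

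Of the other caspases 5 of 8 were tested. In the untreated knockout 3 were higher and none lower (median 0.23, against 0.04 and 49.6% called over all genes). In the treated knockout against treated wild type 2 were higher and none lower (median 0.059, against 0.017 and 44.1% called). Etoposide raised 3 and lowered none in each genotype, with medians of 0.42 in the knockout and 0.44 in wild type. Over all genes 25.0% and 34.3% were called in those comparisons. Casp14, a caspase of skin barrier formation, rose with etoposide in wild type (1.87 ± 0.09, limma adjusted p = 1.02e-08), at 7.73 ± 0.280 TPM with etoposide and 1.40 ± 0.258 TPM without.

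All 17 genes of the mitochondrial step, the apoptosome and the inhibitors of apoptosis were tested. Untreated, 2 were higher and 7 lower in the knockout (median -0.045, against 0.04 and 49.6% called over all genes). In the treated knockout against treated wild type 2 were higher and 5 lower (median -0.024, against 0.017 and 44.1% called). Apaf1, the scaffold that activates caspase-9, averaged 47.7 ± 0.992 TPM in the untreated knockout and 30.6 ± 2.76 TPM in untreated wild type (0.63 ± 0.05, limma adjusted p = 1.09e-06), the opposite direction to Casp9. Htra2, a mitochondrial protease that blocks inhibitors of apoptosis once released, averaged 50.1 ± 2.19 TPM in the untreated knockout and 72.5 ± 1.71 TPM in untreated wild type (-0.53 ± 0.04, limma adjusted p = 7.67e-07). Etoposide raised 3 and lowered 3 of the 17 in the knockout (median -0.031, against 0.0018 and 25.0% called). It raised 2 and lowered 6 in wild type (median -0.07, against 0.023 and 34.3% called). Apaf1 rose with etoposide by 0.68 ± 0.05 in the knockout (limma adjusted p = 1.44e-06) and by 1.19 ± 0.05 in wild type (limma adjusted p = 4.89e-09), and these changes differed (-0.51 ± 0.07, limma adjusted p = 0.00434).

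Of 11 death receptor genes 8 were tested. In the untreated knockout 3 were higher and 1 lower (median 0.14, against 0.04 and 49.6% called over all genes). In the treated knockout against treated wild type 2 were higher and 1 lower (median 0.147, against 0.017 and 44.1% called). Fadd, the adaptor that recruits caspase-8, was the 1 lower in untreated cells (-0.29 ± 0.07, limma adjusted p = 0.00415). Etoposide raised 3 and lowered none in the knockout (median 0.095, against 0.0018 and 25.0% called over all genes) and raised 4 and lowered none in wild type (median 0.22, against 0.023 and 34.3% called). Fas, a death receptor, averaged 5.04 ± 0.679 TPM in the treated and 1.26 ± 0.102 TPM in the untreated knockout (1.41 ± 0.15, limma adjusted p = 2.03e-05), and 3.92 ± 0.746 TPM in treated and 0.370 ± 0.229 TPM in untreated wild type (1.85 ± 0.15, limma adjusted p = 1.02e-06). Untreated wild type alone would not have met the minimum level for Fas. Of 7 genes for the turnover of MCL-1 and BIM, Fbxw7, a ubiquitin ligase subunit that marks MCL-1 for destruction, rose with etoposide by 0.57 ± 0.07 in the knockout (limma adjusted p = 9.81e-05) and by 0.90 ± 0.07 in wild type (limma adjusted p = 1.12e-06). In that list of 7, 2 were higher and 2 lower in the untreated knockout (median 0.059, against 0.04 and 49.6% called over all genes), and none higher and 1 lower in the treated knockout against treated wild type (median 0.067, against 0.017 and 44.1% called). With etoposide 2 were higher and none lower in the knockout (median -0.017, against 0.0018 and 25.0% called), and 2 were higher and 1 lower in wild type (median -0.027, against 0.023 and 34.3% called).

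The 17 tested of 18 p53 targets of cell death had 16 higher and none lower in the untreated knockout (median 0.41, against 0.04 and 49.6% called over all genes). In the treated knockout against treated wild type 10 were higher and none lower (median 0.19, against 0.017 and 44.1% called). Etoposide raised 16 and lowered none in each genotype, with medians of 0.67 in the knockout and 0.80 in wild type. Over all genes 25.0% and 34.3% were called in those comparisons. The difference of the etoposide changes, knockout minus wild type, was called negative for 6 of the 17, as for 1.16% of all genes. Among the 6 was Perp, a membrane protein of p53-dependent death (-0.82 ± 0.09, limma adjusted p = 0.00059).

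**Figure D4:**
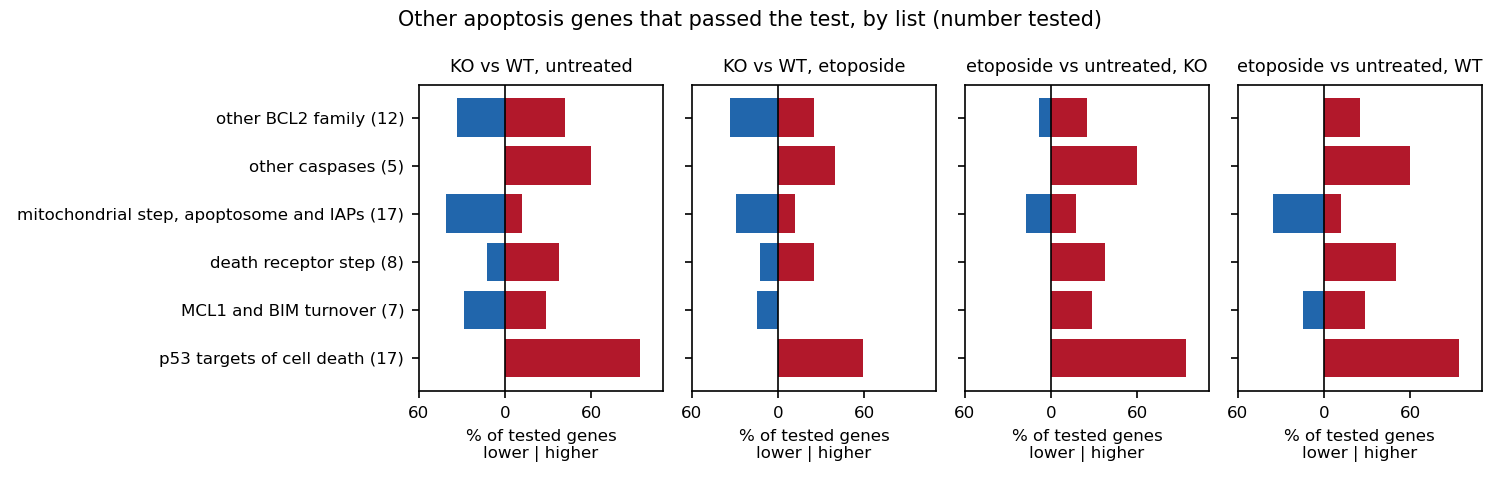
Share of the tested genes of each list that passed the test, higher (right of 0) or lower (left of 0), in 4 comparisons of the Bod1l knockout (KO) and wild type (WT), with the number tested in brackets. The bars for p53 targets stand to the right in every panel, with 16 of 17 genes in 3 panels and 10 of 17 in the treated comparison of genotypes. Over all genes 49.6% were called between untreated and 44.1% between treated genotypes. With etoposide 25.0% were called in the knockout and 34.3% in wild type.

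The genes most like each member were found by Pearson's r of log2(TPM + 1) over the 12 libraries, which share the group differences, so r is given as a description. Casp9 was most like Bbs2 (r = 0.984), Ncaph2 (0.981) and Lamtor1 (0.979). Bcl2l11 was most like Zfp362 (0.976), Aqr (0.973) and Nuak2 (0.972), and Mcl1 most like Nxpe4 (0.970). Nxpe4 averaged only 1.00 TPM, at the minimum level for the test. For Bid the closest gene was Cyth2 (0.965), for Bok Map2k1 (0.961), for Bcl2l1 Tlk2 (0.944) and for Bak1 Eif2b4 (0.940).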

How the data were processed

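RNA from 12 libraries of mouse embryonic stem cells was measured, 1 file per library. The tools named per the submitters' processing notes are Trim Galore 0.6.6, cutadapt 3.4, HISAT2 2.2.1 and StringTie 2.2.1, with GRCm39 as the build. Per the file headers, the authors deposited TPM (a share per gene length), FPKM (per length and mapped fragments) and coverage (mean depth of a gene, unscaled). Per the labels' protocols, RNA was selected for poly(A), depleted of rRNA and made into strand-specific libraries. Whether counting used the strand, and the gene annotation, are not given in the sources used here. Depth was read from the shared ratio of coverage to FPKM, which gives bases and not reads, so no interval from counts is given.

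Rows that shared a gene ID, 2 to 4 extra rows per file, were summed. A mean of 1 TPM or more was required, and log2(TPM + 1) was fitted with limma 3.58.1 (R 4.3.3) as 4 group means and 5 comparisons, with Benjamini-Hochberg adjustment over 14107 genes. The replicates are labelled biological, but separate cultures are not described, so a p-value reflects only how these libraries vary. The members and lists were chosen with earlier results of these data known. All 9 members are named, with up to 4 genes per list and comparison by adjusted p and up to 3 like genes per member, clones, models and pseudogenes left out. Values of 1 list gene are not reported here. The fit was also run on simulated data with independent noise and planted changes, and no result given here rests on that run. Alternatives were a pseudocount of 0.1, no minimum level, 1 TPM in at least 3 libraries, FPKM values, scaling by median of ratios or by quantiles, a block for the replicate number, a fit of only the groups compared, robust variance, and each library left out in turn. Depth-scaled coverage was added after the ratios of coverage to FPKM were seen. Python 3.11.15 with pandas 2.3.3 and matplotlib 3.10.9 was used.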

Additional observations from a re-analysis of the deposited data

How the results depend on the processing

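Each of the 7 tested members was refitted under 22 alternatives, or 21 for the difference between genotypes. Calls lost or gained are given with the members above. The count of members called with etoposide between genotypes was 2 to 5 when a library was left out. Signs turned for changes that had not passed and did not pass then. For the untreated genotypes, Mcl1 was -0.018 with FPKM and -0.024 with median-of-ratios scaling, and Bak1 -0.019 and -0.024, with -0.019 to 0.041 when a library was left out. Leaving out a library gave -0.081 to 0.039 for Bcl2l1, -0.131 to 0.078 for Bok and -0.051 to 0.00298 for Casp9 with etoposide in wild type, and -0.0022 to 0.098 for Bcl2l1 in the knockout. For the difference of the etoposide changes, Bcl2l11 was 0.081 with quantile normalization and -0.071 to 0.0296 when a library was left out. The genes whose etoposide change differed between genotypes numbered 174, but 104 with no minimum level, 102 with quantile normalization and 93 to 131 without 1 library, being 109 without replicate 2 of untreated wild type, 115, 109 and 93 without replicates 1, 2 and 3 of treated wild type, 113 without replicate 1 of the untreated knockout, and 96 and 99 without replicates 1 and 3 of the treated knockout. Replicate numbers did not pair the libraries: same-numbered libraries correlated at -0.045 to 0.045 in their deviations from group means. With the replicate block 6901 genes were called between untreated genotypes, 6068 between treated ones, 3391 and 4702 for etoposide in knockout and wild type and 122 for the difference, and no member's call changed. Bcl2 and Casp8 lie below the minimum level, and what depth limits for them was not tested.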

Other observations

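The transcript of BIM relative to that of the guard MCL-1 did not overlap between treated and untreated libraries of the same genotype, nor between the untreated genotypes, and it did overlap between the treated genotypes. Bcl2l11 TPM was 2.79 to 3.08% of Mcl1 TPM in the treated knockout and 2.27 to 2.58% in the untreated knockout, against 2.57 to 2.86% in treated and 1.90 to 2.18% in untreated wild type. These are levels of RNA, chosen after the values were seen, and no test was made. The ratio of coverage to FPKM for Bcl2 ran from 28.9 to 98.1% of the shared value across libraries, while the ratio for Casp8 ran from 14.1 to 14.7%.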
